A study of Homo sapiens with 9 samples.

Results

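Integrin and laminin genes were followed across 9 polyA RNA-seq libraries of BJ cells, human fibroblasts immortalised with hTERT. The members are all genes of the deposited table whose symbol is that of an integrin alpha chain, an integrin beta chain or a laminin chain. They number 26 of 13745 genes, 16 integrins and 10 laminins, and all 26 passed the filter on low values, a highest value of at least 40. ITGAX passed through lncRNA-OIS1 knockdown replicate 4 alone.

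The libraries fall into 5 groups. The control (1 library) carried non-targeting hairpin 500 and had no RAS activation. The senescent group (2 libraries) had RASG12V, an oncogenic RAS allele, activated with non-targeting hairpin 500 or 507. In 4 libraries RASG12V was joined by a hairpin against the non-coding transcript lncRNA-OIS1 (hairpins 32-2, 32-3, 32-8 and 32-9, replicates 1 to 4). p53 and BRD7, a bromodomain protein, were each knocked down under RASG12V in 1 library. Every library, the control included, is labelled with 14 days of 4-OHT, while the series text describes untreated control cells. All libraries come from 1 cell line, and the labels do not say whether replicates came from separate cultures. Replicates of a group carried different hairpins. The p-values therefore measure only the spread between these libraries, differences between hairpins included.

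Integrins are cell-surface receptors built of 1 alpha and 1 beta chain, and the alpha chain largely sets which matrix protein is bound. Laminins are secreted trimers of 1 alpha, 1 beta and 1 gamma chain that form the core of basement membranes, and several integrins are their receptors. Fibroblasts use integrins to hold and pull on collagen and fibronectin, and a change of this set alters how a cell grips its surroundings.

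Each value is a normalised read count. In the authors' table all 9 libraries hold an identical set of values with a floor of 20 and a total of 14916466.5, which leaves the sequencing depth unknown and allows no counting interval. BRD7 was low where the labels say, at 94.6 in its knockdown library and at 536.6 or more in the other 8. The level of lncRNA-OIS1 itself is not given here. Replicate 4 (hairpin 32-9) stood apart from the other 3 lncRNA-OIS1 libraries, and results that rest on it are given with and without it. The defining fibroblast markers COL1A1, COL1A2, VIM, THY1 and PDGFRA were well above the floor in all 9 libraries. Of the leukocyte marker list, PTPRC was at the floor in 8 libraries and at 157 in the control. CD14 had the opposite order, with 39.9 in the control and 143.9 and 115.2 in senescent replicates 1 and 2. Its change was not called (log2 1.69, SE 0.70, limma adjusted p = 0.159). CSF1R stayed at 29.6 or less in every library. In bulk RNA, fewer cells of a type and less RNA per cell cannot be told apart.

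The 250 bases before the start of 5 genes are shown first, because these genes span the main outcomes: ITGA2 and ITGA6 were higher after RAS activation, LAMA2 had the lowest log2 change, LAMC1 was not called, and LAMB3 holds a match to the binding motif of AP-1, a transcription factor that acts downstream of RAS. The sequences are RefSeq's, on GRCh38.p14 and 5′ to 3′ on the gene's strand: chr5:52989102-52989351 (+) for ITGA2, chr2:172427086-172427335 (+) for the first ITGA6 start, chr6:128882888-128883137 (+) for LAMA2, chr1:183023170-183023419 (+) for LAMC1 and chr1:209651375-209651624 (−) for the third LAMB3 start. Capitals mark matches on either strand to TGANTCA (AP-1) or GGGCGG (Sp1, a general activator of GC-rich promoters).
ITGA2: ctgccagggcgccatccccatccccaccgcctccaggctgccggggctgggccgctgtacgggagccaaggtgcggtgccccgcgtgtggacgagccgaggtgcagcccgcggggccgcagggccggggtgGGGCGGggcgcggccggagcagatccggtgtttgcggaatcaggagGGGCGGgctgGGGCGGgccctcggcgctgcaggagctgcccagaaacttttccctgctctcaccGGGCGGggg
ITGA6: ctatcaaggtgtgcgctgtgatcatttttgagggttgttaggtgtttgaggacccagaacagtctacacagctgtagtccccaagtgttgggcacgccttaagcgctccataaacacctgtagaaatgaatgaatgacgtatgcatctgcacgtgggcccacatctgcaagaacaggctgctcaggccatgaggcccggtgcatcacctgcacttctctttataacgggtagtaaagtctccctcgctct
LAMA2: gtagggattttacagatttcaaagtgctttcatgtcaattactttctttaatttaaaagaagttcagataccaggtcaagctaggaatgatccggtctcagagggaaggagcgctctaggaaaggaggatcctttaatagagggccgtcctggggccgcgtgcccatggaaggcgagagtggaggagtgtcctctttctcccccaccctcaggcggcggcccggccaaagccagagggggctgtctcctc
LAMC1: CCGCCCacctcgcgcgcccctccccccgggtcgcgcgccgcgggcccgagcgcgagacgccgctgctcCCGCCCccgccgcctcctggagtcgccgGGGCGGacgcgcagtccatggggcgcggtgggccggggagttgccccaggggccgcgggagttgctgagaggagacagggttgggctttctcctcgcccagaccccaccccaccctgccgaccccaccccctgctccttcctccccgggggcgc
LAMB3: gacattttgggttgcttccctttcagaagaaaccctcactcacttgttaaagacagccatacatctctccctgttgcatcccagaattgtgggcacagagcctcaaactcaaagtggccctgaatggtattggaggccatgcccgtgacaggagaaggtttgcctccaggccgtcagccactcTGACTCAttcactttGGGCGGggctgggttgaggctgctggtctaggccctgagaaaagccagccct

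RefSeq starts were matched for 20 of the 26 members, with 27 starts. The AP-1 letters occurred in 2 of the 27 member windows, 1 of LAMA3 (2 matches) and 1 of LAMB3 (1 match), beside 6.57% of all 35116 promoter windows of 250 bases. The Sp1 letters occurred in 15 of 27 member windows, beside 42.6% of all windows. Among the sequences shown, ITGA2 held 4 Sp1 matches and LAMC1 held 3, while the windows shown for ITGA6 and LAMA2 held neither motif. The window of the second ITGA6 start, which adjoins the one shown, held 3 Sp1 matches. GGAATG, the TEAD motif, was in 4 member windows (11.9% of all), and CACGTG, the E-box, was in 1, that of ITGA6 (6.34% of all). These are matches of letters and say nothing of binding.

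**Figure D1:**
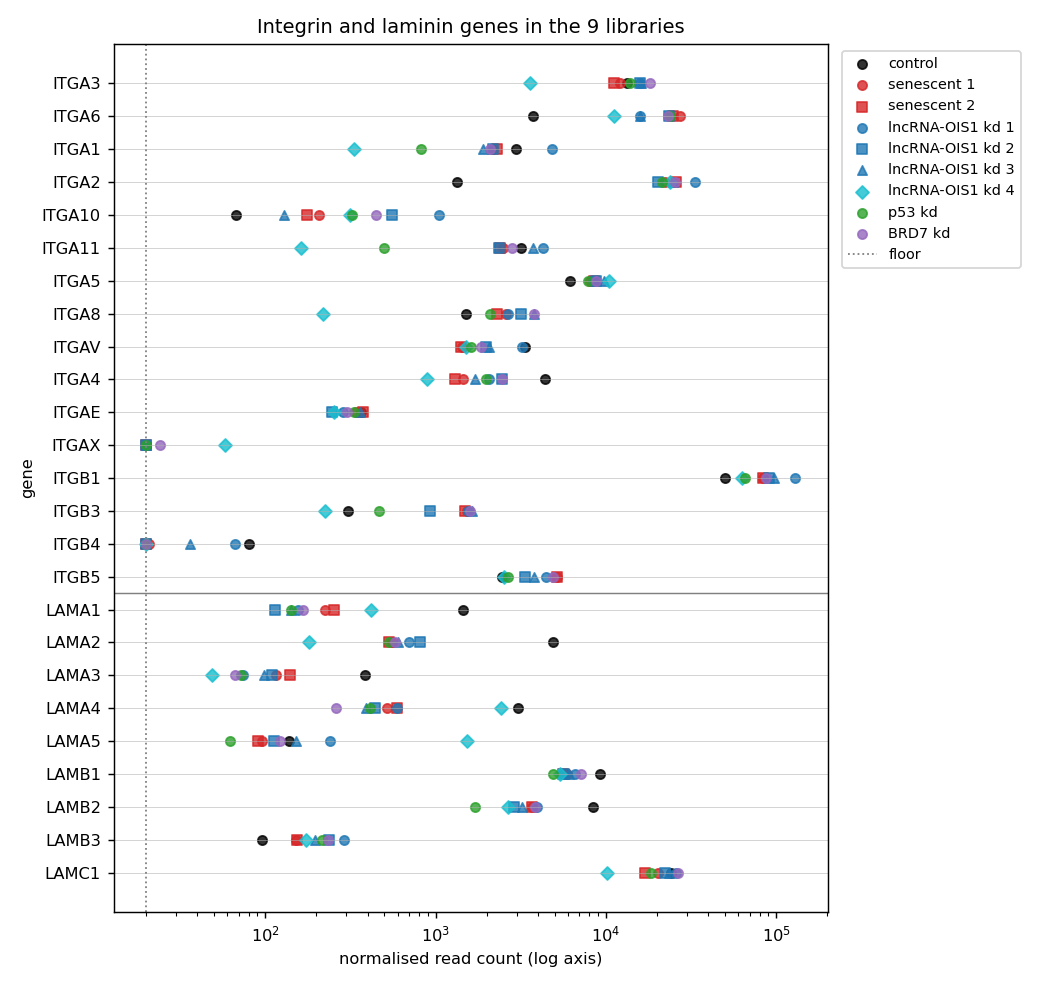
Normalised read count (log axis) of each gene shown in each of the 9 libraries, with the floor of 20 as a dotted line; integrins are above the grey line and laminins below it. The control library (black) lies far left of the rest for ITGA2 and far right for LAMA2, and replicate 4 (light blue diamonds) lies far left for ITGA8 and ITGA11 and far right for LAMA5.

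RAS activation was examined first, by setting the senescent libraries against the control. ITGA2 and ITGA6, alpha chains of receptors for collagen and laminin, rose, and the laminin beta chains LAMB1 and LAMB2 fell. By limma with Benjamini-Hochberg adjustment over all genes, 3 of the 26 members were higher, ITGA2 and ITGA6 among them, and 2 lower, where 7.95% of all 12481 genes tested were higher and 7.10% lower. In either direction that is 5 of 26 beside 15.0% of all genes, a similar share. The median log2 change was −0.28 for the 26 members, 0.22 for the integrins and −0.93 for the laminins, beside 0.03 for all genes.

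**Figure D2:**
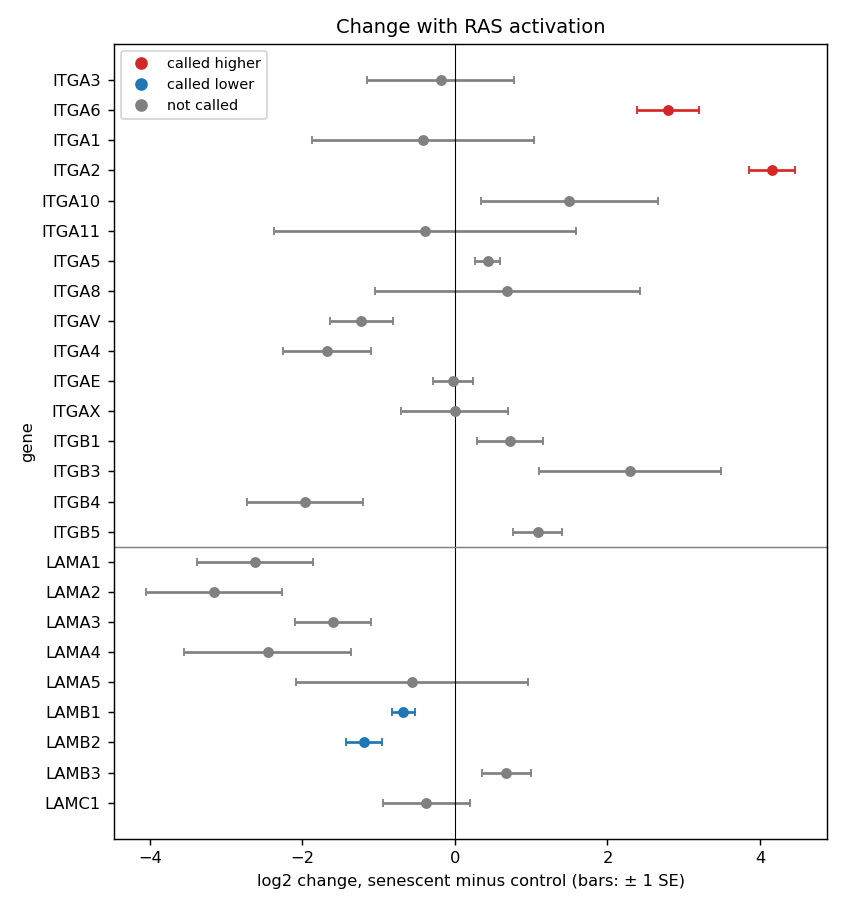
Log2 change, senescent minus control, of each gene shown with 1 SE, coloured by whether it was called at an adjusted p under 0.05. ITGA2 has the largest rise (4.16), and all 5 laminin alpha chains lie below 0 without being called. Over all 12481 genes tested, 5791 had a change below 0.

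Among the receptors for collagen, ITGA2 pairs with the beta chain ITGB1 to bind collagen I and is a known surface marker of platelets and epithelia. ITGA2 stood at 1340.2 in the control, and at 22373 and 25693 in senescent replicates 1 and 2, then at 33191, 20271, 24882 and 23723 in lncRNA-OIS1 replicates 1 to 4, 21239.6 with p53 knockdown and 25365 with BRD7 knockdown. All 8 RAS libraries lay at least 15.1-fold above the control and within 1.64-fold of each other. The senescent mean was 24033 ± 2348 (SD, n = 2), 17.9-fold above the control (log2 4.16, SE 0.30, adjusted p = 0.00214).

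The other 3 collagen receptor chains were not called, and whether they differed from ITGA2 was not tested. ITGA1, the alpha chain of a collagen IV and collagen I receptor, stood at 2984.7 in the control, 2167.4 and 2310.3 in senescent replicates 1 and 2, 4837.3, 2164, 1891.4 and 330.9 in lncRNA-OIS1 replicates 1 to 4, 820 (p53) and 2091.9 (BRD7). ITGA11, the receptor chain with which fibroblasts reorganise fibrillar collagen, stood at 3189.8 in the control, 2492.2 and 2383.7 in senescent replicates 1 and 2, 4282.7, 2350.6, 3711.2 and 161.3 in replicates 1 to 4, 498.6 (p53) and 2822.1 (BRD7). For both genes the senescent libraries were slightly under the control, and only replicate 4 and the p53 knockdown library were far below. Neither was called (ITGA1 log2 −0.42, SE 1.46; ITGA11 log2 −0.39, SE 1.98; adjusted p = 0.88 and 0.927). ITGA10, a collagen receptor chain best known from cartilage, was lowest in the control at 67.6, with 208 and 175 in senescent replicates 1 and 2, 1053.4, 559, 129 and 315 in replicates 1 to 4, 322 (p53) and 446 (BRD7). Its senescent libraries were both above the control, within a wide spread between hairpins (log2 1.5, SE 1.16, adjusted p = 0.417).

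Of the laminin receptor chains, ITGA6 was called and ITGA3 was not. ITGA6, which forms laminin receptors with ITGB1 or with the epithelial chain ITGB4, stood at 3757.1 in the control, and at 27260.1 and 24882 in senescent replicates 1 and 2. It stood at 15776, 23343, 15776 and 11146 in lncRNA-OIS1 replicates 1 to 4, 23723 with p53 knockdown and 23015 with BRD7 knockdown. Every RAS library was above the control, and the senescent mean of 26071 ± 1682 was the highest (log2 2.79, SE 0.41, adjusted p = 0.0159). ITGA3, a laminin receptor chain common to most adherent cells, had 13273 in the control, 12135 and 11193 in senescent replicates 1 and 2 and 15885, 15885, 16014 and 3593.8 in replicates 1 to 4. With p53 and BRD7 knockdown it had 13799 and 18103. Apart from the low replicate 4, ITGA3 stayed between 11193 and 18103 (senescent against control log2 −0.19, SE 0.97, adjusted p = 0.927).

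Receptors that read the RGD motif of fibronectin and related proteins moved in different directions in value, and none was called. ITGA5, the alpha chain of the main fibronectin receptor, varied 1.71-fold over the 9 libraries, with 6119.4 in the control, 8052.3 and 8471.4 in senescent replicates 1 and 2, 8386.9, 8785.3, 9743.6 and 10457 in replicates 1 to 4, 7880 with p53 knockdown and 8719.6 with BRD7 knockdown. The control was the lowest of the 9 (log2 0.43, SE 0.16, adjusted p = 0.129). ITGAV, which pairs with several beta chains and can activate latent TGF-beta, had 3344.9 in the control, 1439.3 and 1417.4 in senescent replicates 1 and 2, 3199.8, 1969.2, 2069.7 and 1503.2 in replicates 1 to 4, 1619.6 (p53) and 1858.6 (BRD7). The control was the highest and both senescent libraries were the lowest (log2 −1.23, SE 0.41, adjusted p = 0.0995). ITGA8, a receptor chain for nephronectin and fibronectin, had 1518.2 in the control, 2598.9 and 2301.1 in senescent replicates 1 and 2, 2663.9, 3197.4, 3762.1 and 217.3 in replicates 1 to 4, 2095.8 (p53) and 3762.1 (BRD7). Only replicate 4 was below the control (log2 0.69, SE 1.74, adjusted p = 0.825).

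ITGA4, whose receptors bind fibronectin and the endothelial protein VCAM1, had 4385 in the control and 1444.7 and 1298.1 in senescent replicates 1 and 2. Its other values were 2073.7, 2446.1, 1707.7 and 890.7 in replicates 1 to 4, 1985.8 with p53 knockdown and 2457.9 with BRD7 knockdown. All 8 RAS libraries were under the control (log2 −1.68, SE 0.58, adjusted p = 0.106, and 0.0143 without replicate 4). The alpha chains known from leukocytes were not called: ITGAE ranged from 246 to 377 over the 9 libraries, and ITGAX was at the floor in 7, at 57.8 in replicate 4 and at 24.0 in the BRD7 knockdown library.

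Beta chains had no call in this comparison. ITGB1, the partner of most alpha chains listed, had 50370.2 in the control, 83304 in both senescent libraries, 129460.3, 91003, 96855 and 63004 in replicates 1 to 4, 65855 (p53) and 86600.3 (BRD7). The control was the lowest of the 9 (log2 0.73, SE 0.43, adjusted p = 0.295). ITGB3, a vitronectin receptor chain, had 308 in the control, 1524.7 and 1494.2 in senescent replicates 1 and 2, 1550.0, 932, 1628.7 and 225 in replicates 1 to 4, 469 (p53) and 1584.1 (BRD7). Its control value lay between those of replicate 4 and the p53 knockdown library, and under both senescent values (log2 2.29, SE 1.19, adjusted p = 0.238, and 0.0203 without replicate 4). ITGB5, another vitronectin receptor chain, had 2440.4 in the control, 5165.4 and 5175.1 in senescent replicates 1 and 2, 4445, 3348.3, 3803.7 and 2535.6 in replicates 1 to 4, 2654 (p53) and 4900.8 (BRD7). The control was the lowest and the senescent libraries were the highest (log2 1.08, SE 0.32, adjusted p = 0.0739, and 0.0204 without replicate 4). ITGB4, the beta chain of the epithelial laminin receptor, was at 80 in the control, 66.6 and 36.1 in replicates 1 and 3, and 20.9 in senescent replicate 1, while 5 libraries were at the floor.

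For all 5 laminin alpha chains the control value exceeded both senescent values. The share of all genes with that order was not counted, and 5791 of all 12481 genes had a log2 change below 0. Limma called 0 of 5 laminin alpha chains (3 had an unadjusted p under 0.05, as had 4210 of all 12481 genes). LAMA2, the chain of muscle and fibroblast laminins that is lost in a congenital muscular dystrophy, had 4866.1 in the control and 558 and 530.0 in senescent replicates 1 and 2. Its other libraries had 699, 809.8, 600.0 and 181 in replicates 1 to 4, 535 with p53 knockdown and 578 with BRD7 knockdown. All RAS libraries were thus at least 6.01-fold under the control (senescent against control log2 −3.16, SE 0.89, adjusted p = 0.0673). LAMA1, a chain of the earliest embryonic laminins, had 1458.9 in the control, 223 and 253 in senescent replicates 1 and 2, 155, 114, 142 and 419 in replicates 1 to 4, 142 (p53) and 167 (BRD7). The control was again the highest (log2 −2.62, SE 0.76, adjusted p = 0.0721).

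LAMA4, a chain of vessel and stromal laminins, was also highest in the control, with replicate 4 within 1.25-fold of it. It had 3039.9 in the control, 517 and 593 in senescent replicates 1 and 2, 594, 441, 389 and 2438.7 in replicates 1 to 4, 412 (p53) and 259.7 (BRD7). Replicate 4 was near the control and the other 7 RAS libraries were at 594 or less (senescent against control log2 −2.46, SE 1.10, adjusted p = 0.182). LAMA3, the alpha chain of the laminin under epithelia, had 385 in the control, 116 and 139 in senescent replicates 1 and 2, 74.0, 109, 98.0 and 48.6 in replicates 1 to 4, 72.2 (p53) and 66.2 (BRD7). Every RAS library was under the control (log2 −1.60, SE 0.50, adjusted p = 0.0843). LAMA5, a chain of mature basement membranes, had 138 in the control, 95.7 and 91.1 in senescent replicates 1 and 2, 241, 113, 152 and 1540.7 in replicates 1 to 4, 62.0 (p53) and 123 (BRD7). It was low in 8 libraries and high in replicate 4 only. Without replicate 4 in the fit, LAMA1, LAMA2, LAMA3 and LAMA4 were called lower (adjusted p = 0.00653, 0.00275, 0.0239 and 0.0104). Replicate 4 enters this comparison through the spread alone, so their log2 changes are the same with and without it.

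Of the laminin beta chains, the broadly used LAMB1 and LAMB2 fell and LAMB3 was not called. LAMB1 had 9227.6 in the control, 5953.8 and 5596.3 in senescent replicates 1 and 2, 6610.0, 5685.4, 6094 and 5388.7 in replicates 1 to 4, 4884.7 (p53) and 7118 (BRD7), all RAS libraries being below the control (log2 −0.68, SE 0.15, adjusted p = 0.0394). LAMB2, a chain of kidney and synaptic laminins that fibroblasts also make, had 8350.8 in the control, 3663.3 and 3667 in senescent replicates 1 and 2, 3964, 2888.1, 3229.7 and 2672.1 in replicates 1 to 4, 1713 (p53) and 3856.1 (BRD7). The control was more than 2-fold above every RAS library (senescent against control log2 −1.19, SE 0.24, adjusted p = 0.0309).

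LAMC1, the gamma chain of most laminins, had 24049.9 in the control, 20271 and 16921 in senescent replicates 1 and 2, 25693, 22373, 23343 and 10177 in replicates 1 to 4, 18331 (p53) and 26557 (BRD7). Both senescent values were under the control, and replicates 1 to 3 lay on both sides of it (log2 −0.38, SE 0.57, adjusted p = 0.696). LAMB3, a chain of the laminin under epithelia, had 95.7 in the control, 151 and 155 in senescent replicates 1 and 2 and 173 to 291 in the lncRNA-OIS1 libraries, with 217 (p53) and 233 (BRD7). The control was the lowest of the 9 (log2 0.67, SE 0.32, adjusted p = 0.209). LAMA3, with AP-1 letters before its start like LAMB3, was lower in value in the senescent libraries, where LAMB3 was higher in value.

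The calls with RAS activation rest on 1 control library and on the spread of the replicated groups. Leaving out senescent replicate 1 or 2 left ITGA2 as the only member called, leaving out lncRNA-OIS1 replicate 2 or 3 left 3, and leaving out replicate 4 gave 12 members beside 29.7% of all genes, 5 higher and 7 lower (16.1% and 13.5% of all genes).

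Dividing by gene length allows a rough comparison of chains with each other. The length used merges all annotated exons of a gene and can exceed that of the transcripts made, so the shares depend on it. Values per kb of exon (GENCODE release 29 lengths, found for all 26) show how the makeup of the alpha chains differed. In the control, ITGA3 held 29.5% of the summed alpha-chain level per kb, ITGA5 17.6%, ITGA6 12.5%, ITGA4 12.1% and ITGA2 3.69%. In senescent replicates 1 and 2, ITGA6 held 40% and 36.7% and ITGA2 27.1% and 31.3%, so that 2 chains made up most of the total. Over the 8 RAS libraries the ITGA2 share ran from 24.8% to 43.4% and the ITGA6 share from 21.5% to 40%, without reaching the control values. The sum of alpha chains was 4593 per kb in the control, 10438.3 and 10390.5 in senescent replicates 1 and 2, and 6906 to 11256.0 over all RAS libraries. ITGB1 held 92.3% to 95.9% of the beta-chain level in all 9 libraries.

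**Figure D3:**
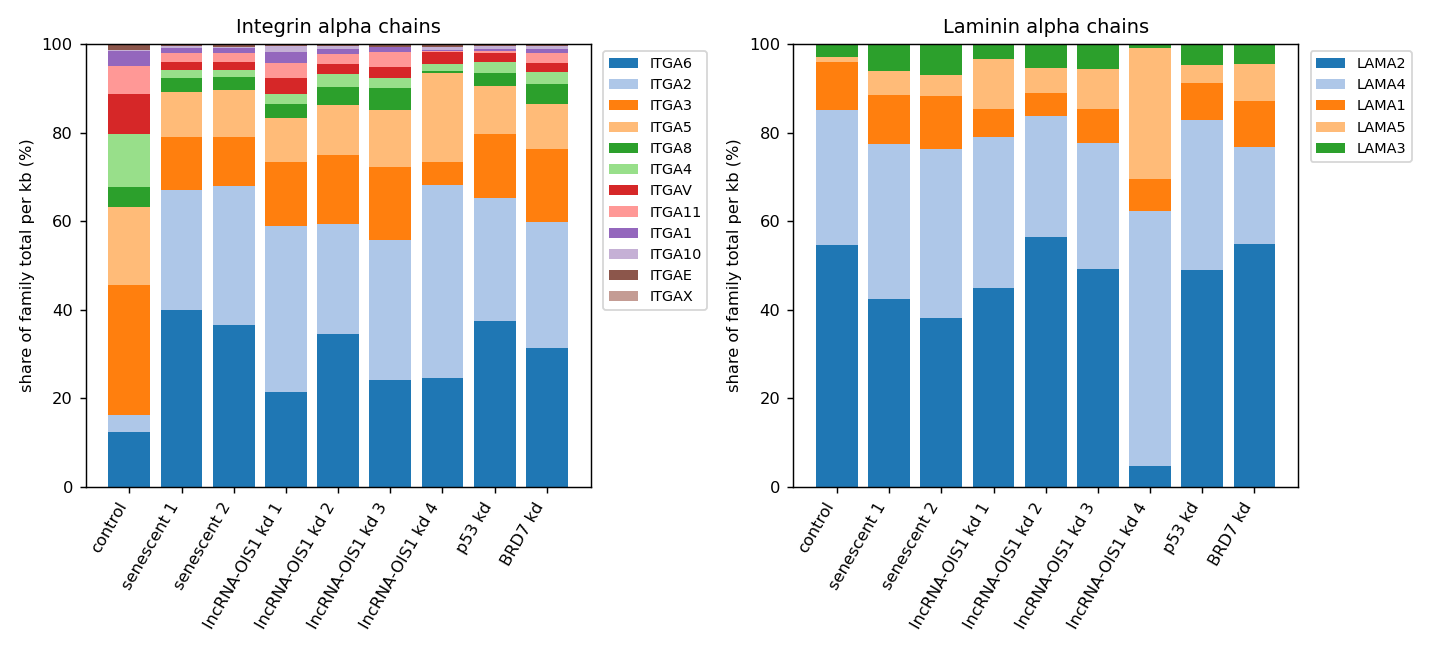
Share (%) of each gene in the summed level per kb of integrin alpha chains (left) and laminin alpha chains (right) in each of the 9 libraries. ITGA2 holds 3.69% in the control and 24.8% or more in each RAS library, and LAMA5 holds 29.5% in replicate 4 and 11.2% or less elsewhere.

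Laminin alpha chains per kb summed to 860.2 in the control, 127 and 134 in senescent replicates 1 and 2, 366 in replicate 4 and 102 to 151 in the other 5 RAS libraries. LAMA2 held 54.6% of the alpha-chain level in the control, 38.1% to 56.3% in 7 RAS libraries and 4.78% in replicate 4, where LAMA4 (57.6%) and LAMA5 (29.5%) led.

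Genes linked to these receptors were counted in the same fit, in which 7.95% of all genes rose and 7.1% fell. Of 24 tested cytoplasmic partners of integrins, 7 fell and 1 rose in the senescent libraries (median log2 −0.54). FERMT2, or kindlin-2, which activates integrins from inside the cell, fell from 5302.8 to 1326 ± 155 (log2 −2.0, adjusted p = 0.00937). NEDD9, a scaffold of focal adhesions, fell by 2.08, and FLNA, the actin crosslinker filamin A, by 1.78. Paxillin (PXN), an adaptor of focal adhesions, rose from 4162.1 to 7791.9 ± 208 (log2 0.90, adjusted p = 0.0355).

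Of 22 integrin ligands other than laminin, 8 fell and 2 rose (median log2 −1.45), beside the same 7.1% and 7.95% of all genes. COL1A1, a chain of collagen I, to which ITGA2 binds, fell by 3.60 on the log2 scale, COL3A1 by 3.51 and THBS1, a secreted glycoprotein, by 2.87. SPP1, or osteopontin, rose from 30.2 to 1117 ± 71.1 (log2 5.21, adjusted p = 0.0148) and LTBP1, which tethers latent TGF-beta to the matrix, rose by 2.27. Of 16 basement membrane and other laminin receptor genes, 7 fell and 0 rose (median log2 −0.74), led by the netrin gene NTN4 (−4.31), the perlecan gene HSPG2 (−2.83) and the syndecan gene SDC2 (−2.65). These medians stand beside 0.03 over all genes. Against the senescent libraries, 0 genes of these lists were called with lncRNA-OIS1 or BRD7 knockdown, beside 0% and 0.00801% of all genes. With p53 knockdown 1 was called, beside 3.84% of all genes. That gene, MFGE8, a secreted ligand of RGD-reading integrins, fell by 2.38 on the log2 scale (limma adjusted p = 0.0467).

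Cell type markers were measured beside these changes. Of 9 fibroblast markers, 5 fell and 0 rose with RAS activation, beside 7.1% and 7.95% of all genes. The summed level of the 9 was 339798 in the control and 103993 to 174748 in the RAS libraries. COL1A1, COL1A2 and COL3A1, already counted among the integrin ligands, were among the 5. They went from 110360.7, 129460.3 and 30796.4 in the control to senescent means of 9132.2, 23935.3 and 2711.3. The fall of the sum is mainly that of these collagens and does not describe the other markers. The 3 epithelial keratins in the list that were measured (KRT8, KRT18, KRT19) summed to 3686.7 in the control and 801 to 2105 in the RAS libraries. The rest of the 7 listed epithelial markers were not among the genes measured. The part of epithelial markers in the results on ITGA2 and ITGA6 was not tested. KRT19 was at the floor in 8 libraries. The 3 leukocyte markers measured summed to 67.2 to 217, and the 1 endothelial marker, TIE1, had 22.2 to 267, highest with p53 knockdown. The part of the fibroblast marker change in the results on laminins was not tested.

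The 4 libraries with hairpins against lncRNA-OIS1 were then set against the 2 senescent libraries. By limma 0 of 26 members and 0% of all 12481 genes were called, while ITGB5 alone of the members had an unadjusted p under 0.05 (0.0444), as had 2805 of all genes. The median log2 change of the members was −0.02, the same as over all genes. Without replicate 4, members called were again 0 (1.31% of all genes). ITGA6 was lower in all 4 libraries than in both senescent ones (16510.4 ± 5051, n = 4 libraries of different hairpins, against 26071 ± 1682, log2 −0.71, SE 0.29, adjusted p = 0.228). ITGB5 was also lower in all 4 (3533.2 ± 803 against 5170.3 ± 6.86; log2 −0.58, SE 0.22, adjusted p = 0.21). LAMA3 was the third gene of this kind (log2 −0.69, SE 0.35, adjusted p = 0.315). ITGAV, LAMA5 and LAMB3 were higher in all 4 libraries (log2 0.56, 1.60 and 0.53, SE 0.29, 1.07 and 0.23, adjusted p = 0.322, 0.435 and 0.252). The size for LAMA5 rests on replicate 4, at 1540.7 against 241.2, 112.7 and 151.9 in replicates 1 to 3. Without replicate 4 the LAMA5 log2 change was 0.78 (limma adjusted p = 0.228). The share of all genes whose groups lay apart in this way was not counted, so nothing is read from the number of such members. ITGA2 overlapped between the groups (25517 ± 5478 against 24033 ± 2348; log2 0.07, SE 0.21, adjusted p = 0.878).

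Set against the control, which both comparisons with the control share, the lncRNA-OIS1 knockdown libraries differed in 7 members, beside 11.2% of all genes. ITGA2 (log2 4.23, SE 0.27, adjusted p = 0.00126) and ITGA6 (log2 2.09, adjusted p = 0.0257) were among those higher, 3 of 26 beside 5.38% of all genes. LAMA1 (−3.02), LAMA3 (−2.29), LAMB1 (−0.64) and LAMB2 (−1.41) were lower, 4 of 26 beside 5.83% of all genes. The adjusted p-values of these 4 ran from 0.0174 for LAMB2 to 0.0498 for LAMA1. In the senescent libraries the 6 genes named had log2 changes from the control of 4.16 and 2.79, then −2.62, −1.60, −0.68 and −1.19. Without replicate 4, 14 members were called beside 22.6% of all genes, 7 higher and 7 lower (11.6% and 11% of all genes), with ITGA5, ITGA8, ITGB3 and LAMB3 added above and ITGA4, LAMA2 and LAMA4 below. ITGA8 is the case most bound to replicate 4 (log2 0.10, adjusted p = 0.974, and 1.06, adjusted p = 0.0356, without it). Leaving out either senescent library left ITGA2 alone, and leaving out lncRNA-OIS1 replicate 1, 2 or 3 left 3, 3 and 2 members.

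**Figure D4:**
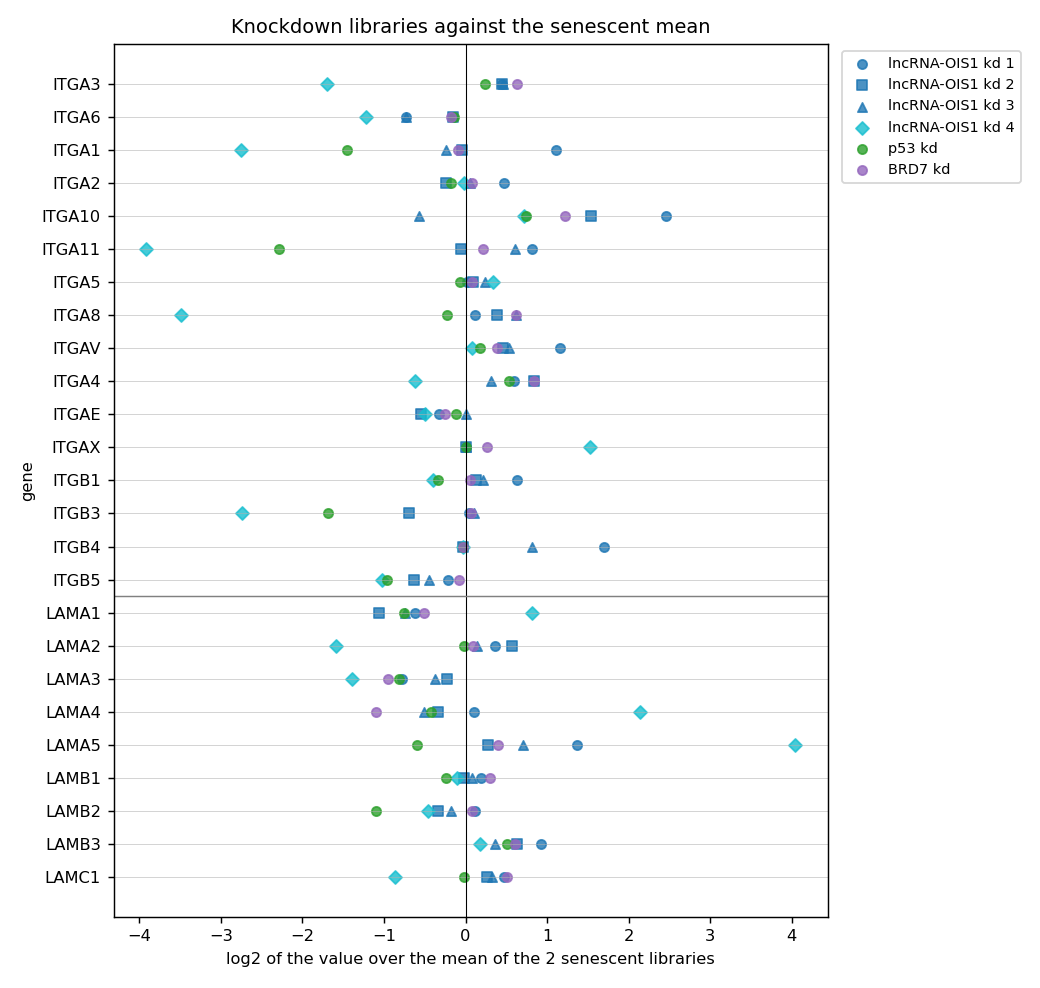
Log2 of each knockdown library's value over the mean of the 2 senescent libraries, per gene, with 0 marking no difference. Most points lie near 0, the p53 knockdown library (green) is low for ITGA11, ITGB3, ITGA1 and LAMB2, and replicate 4 (light blue diamonds) is low for ITGA11 and ITGA8 and high for LAMA5 and LAMA4.

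Knockdown of p53 lowered no member past the threshold. By limma 0 of 26 were called, 2 had an unadjusted p under 0.05 (LAMB2 and ITGB5), as had 3286 of all 12481 genes, and 3.84% of all genes were called (2.27% higher and 1.57% lower). The log2 change from the senescent mean was below 0 for 20 members and above 0 for 5, beside 6206 and 5976 of all 12481 genes (median log2 −0.20 beside 0 over all genes). LAMB2 came closest, at 1713 against 3665.2 ± 2.62 in senescent replicates 1 and 2, the lowest of the 9 libraries (log2 −1.10, SE 0.24, adjusted p = 0.0639, and 0.0409 without replicate 4). ITGB5 was at 2654 against 5170.3 ± 6.86 (log2 −0.96, SE 0.32, adjusted p = 0.131, and 0.0415 without replicate 4). ITGA11 was 4.89-fold under the senescent mean, with 499 against 2438 ± 76.7 (log2 −2.29, SE 1.98, adjusted p = 0.526, and 0.0373 without replicate 4). Without replicate 4 these 3 members were called lower and 0 higher, where 17.2% of all genes were called, 8.82% lower and 8.37% higher. ITGB3 (log2 −1.69, SE 1.19, adjusted p = 0.429) and ITGA1 (log2 −1.45, SE 1.46, adjusted p = 0.59) had low values as well. In all, 4 members (ITGA1, ITGA11, ITGB3 and LAMB2) were over 2-fold under the senescent libraries and 0 over 2-fold above, beside 6.22% and 7.27% of all genes.

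No member was called with BRD7 knockdown. By limma 0 of 26 were called and 0 had an unadjusted p under 0.05 (1735 of all 12481 genes had), with 0.00801% of all genes called. The median log2 change was 0.08. ITGA10 (446 against 192 ± 23.5; log2 1.22, SE 1.16, adjusted p = 0.734) was the 1 member over 2-fold above the senescent libraries, and LAMA4 (260 against 555 ± 53.8; log2 −1.09, SE 1.10, adjusted p = 0.752) the 1 member over 2-fold below, beside 4.12% and 2.29% of all genes. The SEs of the 26 log2 changes ran from 0.15 to 1.98 with 1 library.

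Replicate 4 of the lncRNA-OIS1 knockdown was far from replicates 1 to 3 for many members. Over 2-fold below the geometric mean of replicates 1 to 3 were 8 members, and 4 were over 2-fold above, beside 6.85% and 6.07% of all genes. Relative to the mean of replicates 1 to 3, ITGA11 was 21.4-fold lower, ITGA8 14.8-fold lower, ITGA1 8.96-fold lower, ITGB3 6.08-fold lower, ITGA3 4.43-fold lower and LAMA2 3.88-fold lower. ITGA4 (2.33-fold) and LAMC1 (2.34-fold) completed the 8. LAMA5 was 9.14-fold higher, LAMA4 5.14-fold and LAMA1 3.06-fold, and ITGAX was at least 2.89-fold higher, as the other 3 libraries were at the floor. ITGA2, ITGA5, LAMB1 and LAMB2 of replicate 4 were within 1.26-fold of that mean. It was the lowest of the 9 libraries for 9 members, beside 16.2% of all genes, and the highest for 3, beside 17.3%. Replicate 4 is 1 library with 1 hairpin, so these are descriptions without a test. In the same library KRT18 was at 486 against 951 to 1830.3 in replicates 1 to 3, and PDGFRA at 10273 against 6641 to 9428.1, and their part in this profile was not tested.

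Replicate 1 was the highest of the 9 libraries for 6 members, among them ITGA1, ITGA2, ITGA10, ITGA11 and ITGB1, beside 6.95% of all genes, and the lowest for 0, beside 6.46%. The control was the highest for 9 and the lowest for 8, beside 23.1% and 25.3% of all genes. Between the highest and the lowest of the 4 lncRNA-OIS1 libraries, the members differed from 1.23-fold (LAMB1) to 26.6-fold (ITGA11). ITGA8 (17.3-fold), ITGA1 (14.6-fold) and LAMA5 (13.7-fold) followed ITGA11, with replicate 4 at 1 end of the range in each. For ITGA10 the 8.14-fold range lay between replicates 1 and 3. Where genes overlap, a read can fall within both, and whether such reads were counted or left out was not examined. On the same strand, 4 members share exon sequence with another gene, among them ITGA1 (with PELO) and ITGB3. On the other strand 12 members do, among them LAMB1 (with DLD) and LAMA5 (with ADRM1). The sources used here do not say whether strand was used in counting, so reads of such overlapping genes cannot be told apart.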

How the data were processed

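The authors deposited 1 table of signal per gene and library: read counts that were quantile-normalised and given a floor, as the table's name and its identical value sets show. Per the submitters' processing notes, the tools included TopHat2 and HTSeq and the genome was hg19. No source used here gives their versions or the annotation. With equal value sets, a value reflects a gene's place in its library, and differences in total RNA are hidden.

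Log2 values were fitted with limma 3.58.1 in R 4.3.3, with no pseudocount, for 12481 genes with a highest value of at least 40. A single model held 9 libraries in 5 groups, with 4 residual degrees of freedom and a variance trend. It takes the spread of the 3 unreplicated groups from the replicated ones. Tests were two-sided, with Benjamini-Hochberg adjustment over all genes and calls under 0.05. The fit was tested on simulated data. Members called, or over 2-fold apart between libraries with a highest value of at least 500, were given in every library, and up to 3 called genes per direction in each list of linked genes were named. Values of 1 member and of 1 targeted gene are not reported here, and counts over the 26 members include that member. Members and lists were chosen with earlier results of these data known. Means ± SD are of linear values. Log2 changes compare means of log2 values. Exon lengths came from GENCODE release 29 and promoters from RefSeq. Alternatives were pseudocounts, filters, scaling, no trend, subsets of libraries and a replicate block.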

Additional observations from a re-analysis of the deposited data

Results flagged for a closer look

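Among the 4 lncRNA-OIS1 knockdown libraries, replicate 4 stood far from the other 3 on the log2 scale for 3 of the 25 members that could be tested, 12% of them. The same rule set replicate 4 apart for 5.27% of the 12134 genes tested in the same way. It set any of the 4 libraries apart for 7.84%, where chance gives about 1 in 20 for the 4 libraries together. Replicate 4 was the library apart for 639 of these 951 genes. ITGA3 was at 3593.8 there and at 15885 to 16014 in the others. ITGA8 was at 217.3 against 2663.9 to 3762.1, and LAMC1 at 10177.2 against 22373 to 25693. ITGAX was at 57.8 against the floor of 20 in the other 3, so the rule could not fail for it, and it is not counted among the 3.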

How the results depend on the processing

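With pseudocounts of 10 or 50, no filter, median-of-ratios scaling or no trend, the number of members called stayed within 1.5 times in the senescent and lncRNA-OIS1 knockdown comparisons with the control (4 to 6 against 5, and 5 to 7 against 7), and at 0 in the others. Keeping genes with a mean of 80 or more gave 5 and 9 for these, and 1 for p53 knockdown (LAMB2) against 0. Leaving out 1 library in turn gave 1 to 12 members for senescent against control, 1 to 14 for lncRNA-OIS1 knockdown against control, 0 to 3 for p53 knockdown, and 0 to 0 for the other comparisons. ITGA2 was called in all 12 alternatives of both comparisons with the control. ITGA8 in lncRNA-OIS1 knockdown against control ran from −0.31 to 1.06 on the log2 scale when 1 library was left out, the sign turning without lncRNA-OIS1 replicate 1, 2 or 3. A replicate block over numbers 1 and 2 of the senescent and lncRNA-OIS1 libraries called 0 members, as did the fit without the block. Same-numbered libraries did not deviate together (r = −0.07 and −0.10 across genes), and share a number only. The normalisation hides depth, so what depth limits cannot be given.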
